A study of Mus musculus with 2 samples.

Results

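Classical monocytes of the mouse spleen were chosen by their transcripts in a droplet single-cell RNA table, so every gene of the rule below is high or low in them by choice. A barcode was kept if it had at least 200 detected genes and at most 10% of its unique molecular identifiers (UMIs, each marking 1 captured RNA molecule) from mitochondrial genes. Among the kept barcodes, a classical monocyte had at least 3 UMIs summed over F13a1, Vcan, Ccr2 and Fn1, and at least 1 UMI of Csf1r or Ms4a6c. It had at most 1 UMI over the B cell genes Cd79a, Cd79b and Ms4a1, and none of the T cell genes Cd3d, Cd3e and Cd3g. It also had at most 2 UMIs of the macrophage genes C1qa, C1qb and C1qc, at most 1 of Siglech, a plasmacytoid dendritic cell gene, and none of the type 1 dendritic cell genes Xcr1 and Clec9a. This left 76 of 6588 kept barcodes, or 1.15% (0.910 to 1.44, exact Clopper-Pearson 95% interval).

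The series profiled spleen cells of mice aged 6 to 8 weeks. The titles mark 1 sample as WAS and 1 as WT. The WAS sample is taken here as WAS-KO, from mice lacking the Wiskott-Aldrich syndrome gene. The mouse model label reads the same for both, and neither the knockout allele nor the strain is given in the labels. The deposited UMI counts form 1 table of 7524 barcodes with a single suffix and 0 repeats, in which nothing ties a barcode to WAS-KO or WT. The 76 cells are therefore 1 pooled set from an unknown mix of genotypes, no genotype comparison was made, and every interval below covers counting error only. Was, the Wiskott-Aldrich syndrome gene (chromosome X, 8081453 to 8090498, minus strand, GRCm38), had 94 UMIs in the 76 cells, or 93.5 CPM (75.5 to 114). It was seen in 55 of them. CPM is the summed UMIs of a gene scaled to a group total of 1000000 UMIs, with an exact Poisson interval.

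Classical monocytes are the Ly6C-high monocytes of the mouse. They leave the bone marrow through the chemokine receptor CCR2, circulate, and form a reserve in the splenic red pulp that can be released or can mature into macrophages and antigen-presenting cells. Nonclassical monocytes, which lose Ly6C and patrol vessel walls, arise from them with the help of the nuclear receptor NR4A1. The growth factor receptor CSF1R and the transcription factor PU.1 are shared by the whole lineage.

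The promoters of the gene that gives these cells their usual surface name, of its neighbouring paralogue, and of a gene of the rule are shown because the first and the last were both read many times in these cells and the paralogue not at all. Each is the run of 250 bases before a start site, 5′ to 3′ along the gene's strand, from RefSeq on GRCm38.p6. Each gene has 2 listed starts, and only the most upstream was read. Capitals mark the letters GAGGAA on either strand, a core that PU.1 can bind. Ly6c2 (chr15:75111972-75112221, minus strand), Ly6c1 (chr15:75048838-75049087, minus strand) and F13a1 (chr13:37050245-37050494, minus strand) each held 1 such match.
Ly6c2: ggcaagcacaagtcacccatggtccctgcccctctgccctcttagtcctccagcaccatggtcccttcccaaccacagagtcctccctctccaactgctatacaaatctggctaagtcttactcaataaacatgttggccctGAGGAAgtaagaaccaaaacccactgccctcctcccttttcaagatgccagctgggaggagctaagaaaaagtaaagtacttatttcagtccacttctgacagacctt
Ly6c1: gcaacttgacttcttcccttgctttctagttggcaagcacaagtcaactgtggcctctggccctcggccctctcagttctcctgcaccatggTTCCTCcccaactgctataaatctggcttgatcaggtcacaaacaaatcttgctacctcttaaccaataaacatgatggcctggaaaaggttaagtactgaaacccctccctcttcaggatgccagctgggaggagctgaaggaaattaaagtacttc
F13a1: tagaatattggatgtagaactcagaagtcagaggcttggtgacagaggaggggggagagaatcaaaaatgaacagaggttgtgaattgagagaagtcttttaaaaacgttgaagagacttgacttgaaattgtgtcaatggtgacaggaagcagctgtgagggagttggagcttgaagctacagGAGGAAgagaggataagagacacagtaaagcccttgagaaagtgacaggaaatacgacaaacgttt
The letters GAGGAA occurred in 23.3% of 32851 RefSeq promoters of the same length. TTNCNNAA, letters that C/EBP factors can bind, occurred in 36.8% of them, and once each in Ly6c2 and F13a1 but not in Ly6c1. GAAA followed by NN and a second GAAA, letters of an interferon response element, occurred in 2.98% of them and in none of these 3. No PU.1 match overlapped a match of either other motif. The Ly6c2 and Ly6c1 windows were identical at 75.9% of 216 aligned bases, and the alignment held 68 further gap positions. A match is a run of letters, not a shown binding site.

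The 76 cells held 1005618 UMIs, with a median of 12214 per cell (1261 to 43377) and 3354 genes. Mitochondrial UMIs took a median of 3.84%. The other 6512 kept cells had a median of 5306 UMIs. Scrublet called 137 of the 6588 cells doublets (2.08%) and none of the 76. The comparison types were gated in the same way, each with at most 2 UMIs over F13a1, Vcan, Ccr2 and Fn1. Nonclassical monocytes (at least 3 UMIs over Ace, Treml4, Cd300e, Eno3 and Adgre4) numbered 26 cells with a median of 5484.5 UMIs. Neutrophils had at least 3 UMIs over Retnlg, Csf3r, Cxcr2, Mmp8, Mmp9, Ngp, Ltf and Camp, and at least 10 over S100a8 and S100a9. They numbered 137 cells (median 6087). Type 2 dendritic cells had at least 2 UMIs over Flt3, Cd209a, Clec10a and Zbtb46, and a UMI of Itgax or Sirpa. They also had at least 20 UMIs over the MHC class II genes H2-Aa, H2-Ab1, H2-Eb1 and Cd74. Only 11 cells (median 7735) met this rule, and 2 of them also met the nonclassical rule.

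The label held for most of the 76 cells but not for all. The genes of the rule are described here and not tested. Its 4-gene sum ran from 3 to 187 UMIs with a median of 33. Just inside the threshold, 5 cells had a sum of 3, 3 of them had at least 20 UMIs of Lyz2, the myeloid lysozyme gene, and 4 had at least 3 UMIs over the genes that gated nonclassical monocytes. Just outside, 10 cells had a sum of 2, of which 0 had 20 Lyz2 UMIs, 1 had 3 such nonclassical UMIs and 9 carried at least 10 UMIs of an 8-gene natural killer (NK) cell list.

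A set of 8 of the 76 cells carried 43 to 180 UMIs of the NK list (Nkg7, Gzma, Klrb1c, Ncr1, Klra8, Klre1, Prf1, Eomes), against 0 to 2 in the other 68. Of the 8, 7 had at most 1 Lyz2 UMI, no Csf1r and a single Ms4a6c UMI, and they met the rule through Ccr2 alone, at 3 to 7 UMIs. These 7 go against the label, and they are not the only cells in doubt. The remaining cell had 82 NK-list UMIs together with 346 UMIs of Lyz2, 55 of Ly6c2, 4 of Csf1r and 19 of Ms4a6c. The 8 cells held 454 of the 460 UMIs of Gzma, a granule protease of NK and T cells, 154 of 164 of Nkg7 and 606 of 634 of the chemokine gene Ccl5. The threshold of 10 UMIs was chosen after these values were seen, and results are given below with and without the 8 cells.

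Another 4 cells had 87.2 to 114 UMIs per 10000 of the 16-gene nonclassical list, close to the median of 108 in nonclassical monocytes, with 3 to 4 Ccr2 UMIs and 0 to 3 Ly6c2 UMIs. A further 4 cells had no Ly6c2 UMI and 152 to 486 UMIs of MHC class II genes, with 19 to 115 Lyz2 UMIs. These 8 cells sit between the label and the nonclassical or antigen-presenting types, and both limits that picked them were set after the values were seen. Without them, 221 genes were at least 2-fold higher and 151 lower than in nonclassical monocytes, of 1817 tested. The log2 ratio of Cd74, the MHC class II invariant chain, was then −2.17 and that of the class II chain gene H2-Eb1 −4.06, against −1.54 and −2.58 with them, and the comparison is described below with the 8 cells kept.

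In the other 68 cells Lyz2 ran from 9 to 870 UMIs, with a median of 283.5, and Csf1r was found in every cell, at 1 to 20 UMIs. Markers of further cell types were low. The neutrophil genes Ly6g, Cxcr1 and Stfa2l1 were at 0. Of 14 neutrophil markers, 11 had a UMI, with 0 to 58 UMIs per cell over the list. S100a8 stood at 205 CPM, against 990 CPM in 2857 B cells (at least 5 UMIs over Cd79a, Cd79b and Ms4a1, no Cd3 UMI), which should lack it. The B cell gate set no limit on neutrophil genes, though, and B cells had 0 to 10762 UMIs per cell over the 14 markers, with a median of 2. Scaled to depth, the median of the list was 6.48 UMIs per 10000 in the 68 cells and 3.90 in B cells. Whether S100a8 is background here was not tested. Of 8 platelet markers 5 had a UMI, at 0 to 5 UMIs per cell, beside F13a1, which platelets also make. Of 10 type 2 dendritic markers 9 had a UMI, with a median of 5 UMIs per cell, and Cd209a was seen in 4 cells.

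**Figure D1:**
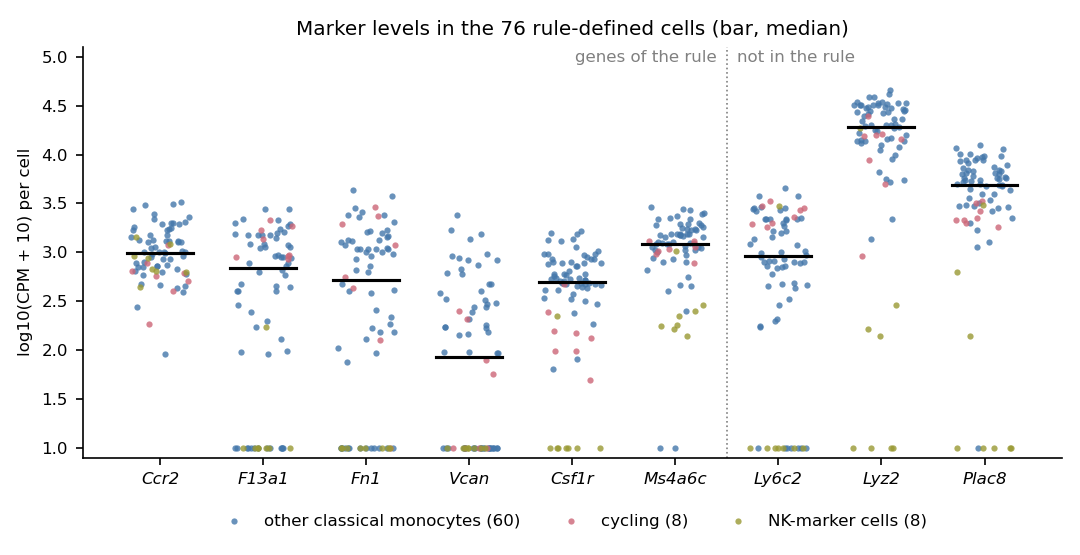
Marker levels in each of the 76 cells, as log10 of CPM plus 10, with bars at the median over all 76 and cells at 0 on the lowest line. The 6 genes left of the dotted line are in the rule, and the 7 NK-marker cells that go against the label lie low or at 0 for Lyz2, Ly6c2 and Plac8.

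The recruitment and matrix genes that chose the cells were not carried evenly. Ccr2, the receptor for the monocyte chemoattractant CCL2 (chromosome 9, 124101950 to 124113557), was in all 76 cells, with 1 to 47 UMIs and a median of 13, or 1076 CPM (1013 to 1142). It stood at 24.7 CPM in nonclassical monocytes, 0.838 CPM in neutrophils and 0 in the 11 dendritic cells. Those types were gated to at most 2 UMIs over the 4 genes, so their low Ccr2 was set by choice. F13a1, the coagulation factor XIII A chain that crosslinks fibrin (chromosome 13, 36867178 to 37050244), was seen in 56 of 76 cells, at 0 to 76 UMIs with a median of 7.5. Fn1, fibronectin (chromosome 1, 71585520 to 71653200), was in 54 cells, at 0 to 72 UMIs with a median of 5.5. Vcan, the matrix proteoglycan versican, was in 40 cells, at 0 to 20 UMIs. Ccr2 was thus the broadest of the 4, and it is also the gene on which the NK-marker cells entered.

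Ly6c2, the Ly6C gene by which classical monocytes are sorted, is not in the rule. It had 1648 UMIs in the 76 cells, or 1639 CPM (1561 to 1720), and ran from 0 to 122 UMIs per cell with a median of 11.5. It was found in 62 of 76 cells, and in 61 of the 68 without NK markers. In nonclassical monocytes it had 24 UMIs in 6 of 26 cells, or 148 CPM (94.8 to 220), and the most in any cell was 19. Thinned to 1000 UMIs per cell, 59.2% of classical monocytes (47.3 to 70.4) had a Ly6c2 UMI, against 3.85% of nonclassical monocytes (0.0973 to 19.6) and 4.70% of B cells. The per-cell ranges overlapped, since 14 classical monocytes were at 0. Without thinning the shares were 81.6%, 23.1% and 15.2%, at median depths of 12214, 5484.5 and 5214 UMIs.

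Ly6c1, the neighbouring paralogue that endothelial and lymphoid cells use, had 0 UMIs in the 76 cells, which allows up to 2.98 CPM, and 581 UMIs in the 6512 other cells. The Ly6C signal of these monocytes was therefore read from Ly6c2 alone. How reads that fit both paralogues were counted is not given in the sources used here.

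Ratios of summed CPM were computed for genes with at least 100 UMIs over both groups, leaving out genes of either gate, and a gene was called where the ratio reached 2-fold. Over nonclassical monocytes, 214 of 1930 genes (11.1%) were at least 2-fold higher in classical monocytes and 158 (8.19%) at least 2-fold lower. Over all tested genes the median log2 ratio was 0.06. Each list count over nonclassical monocytes below is to be read beside the shares of 11.1% and 8.19%. Without the 8 NK-marker cells the shares were 11.3% higher and 8.63% lower of 1843 genes.

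The highest ratios came from different subsets of the 76 cells. Among the 15 highest were Pclaf (log2 ratio 5.23, 2.74 to 10.54), Top2a (4.66, 2.80 to 7.71) and Mki67, which all mark dividing cells, and Gzma (4.63, 3.07 to 6.91) and Ccl5 (4.09, 2.96 to 5.54), which sat in the NK-marker cells. Mki67 and Prtn3, a protease of granulocyte and monocyte progenitors, had 272 and 317 UMIs in classical monocytes and 0 in nonclassical monocytes. Their ratios are lower bounds, at least 14.6-fold for Mki67 and at least 17.0-fold for Prtn3, against 3 UMIs over the nonclassical group. Others kept a high ratio in the 60 cells without NK-marker and cycling cells. Capg, an actin-capping protein, had 280 UMIs against 2 (4.50, 2.63 to 7.55), and Slfn1, a Schlafen family gene, had 258 against 2 (4.38, 2.51 to 7.43). Slpi, a secreted protease inhibitor, had 147 against 2 (3.57, 1.69 to 6.63).

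When NK-marker and cycling cells were left out, 60 cells remained. Of 1345 genes, 109 (8.1%) were then at least 2-fold higher and 81 (6.02%) at least 2-fold lower than in nonclassical monocytes. The leading genes then included Slfn1 (4.81, 2.94 to 7.86), Capg (4.58, 2.71 to 7.63) and Slpi (3.64, 1.75 to 6.71). Lower in the order stood Wfdc17, a secreted whey acidic protein domain gene (3.49, 2.78 to 4.30), the ubiquitin-like interferon-induced gene Isg15 (3.25, 1.67 to 5.55) and Ly6c2 (3.21, 2.63 to 3.86). Vim, the intermediate filament vimentin, stood at 1926 CPM against 364 CPM (2.40, 2.03 to 2.81).

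**Figure D2:**
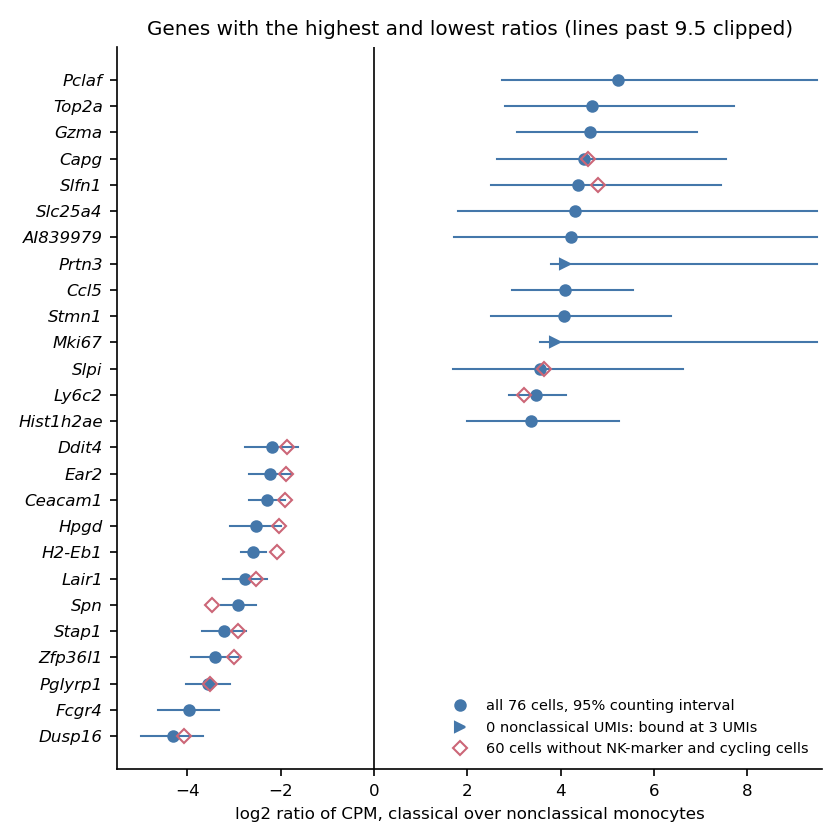
Log2 ratios of summed CPM for 14 of the 15 genes with the highest and the 12 with the lowest ratio, classical over nonclassical monocytes, with counting intervals clipped at 9.5, and open diamonds for the same ratio in the 60 cells without NK-marker and cycling cells. Pclaf, Top2a, Gzma, Ccl5, Prtn3 and Mki67 have no diamond because they fell under 100 UMIs, whereas Capg, Slfn1, Slpi and Ly6c2 stay near their place.

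Of 18 classical markers, 12 not in a gate were tested, and 9 were at least 2-fold higher than in nonclassical monocytes and 0 lower (median log2 ratio 1.73). In the 60 cells the count was 10 of 12. Lyz2 stood at 19823 CPM against 5350 CPM (1.89, 1.79 to 1.99). Plac8, a small cysteine-rich protein, stood at 4739 CPM against 1800 CPM (1.40, 1.23 to 1.57). Chil3, a chitinase-like secreted protein, stood at 576 CPM against 154 CPM (1.90, 1.33 to 2.54), but it was at 0 in 35 of the 76 cells and in 23 of 26 nonclassical monocytes. Ms4a4c, a membrane protein gene induced by interferon, stood at 625 CPM against 148 CPM (2.08, 1.49 to 2.73). It ran from 0 to 23 UMIs in the 68 cells without NK markers, with a median of 9, and from 0 to 5 in nonclassical monocytes, with a median of 0. The other family members tested, Ms4a6d (2.27, 1.20 to 3.60), Ms4a6b (1.31, 0.85 to 1.81) and Ms4a4b (3.12, 1.55 to 5.42), were higher too. Ms4a4b, which T and NK cells express, fell under 100 UMIs in the 60 cells.

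The nonclassical markers ran the other way. Of 7 tested, 6 were at least 2-fold lower and 0 higher (median −2.07), and the same 6 of 7 count held in the 60 cells. Dusp16, a MAP kinase phosphatase, had 26 UMIs in the 76 classical monocytes against 83 in the 26 nonclassical monocytes (−4.31, −5.00 to −3.66). Spn, the sialomucin CD43, had 106 against 128 (−2.90, −3.29 to −2.52), with a median of 1 UMI per classical cell against 4. Nr4a1, the receptor on which nonclassical monocytes depend, stood at 195 CPM against 820 CPM (−2.07, −2.40 to −1.74), and Pou2f2, an octamer-binding factor, at 424 CPM against 1763 CPM (−2.06, −2.28 to −1.84). Cx3cr1, the fractalkine receptor, did not reach 2-fold, at 259 CPM against 481 CPM (−0.89, −1.27 to −0.51). Fcgr4, an activating Fc receptor outside the marker list, had 29 UMIs against 73 (−3.96, −4.64 to −3.32), and Pglyrp1, a peptidoglycan recognition protein, had 61 against 115 (−3.55, −4.02 to −3.09).

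Type I interferon-stimulated genes were higher in classical monocytes, where 13 of the 19 tested members were at least 2-fold higher and 0 lower, with a median log2 ratio of 1.24 beside 0.06 over all tested genes. In the 60 cells the count was 13 of 18, with a median of 1.55. Isg15 had 128 UMIs against 3 (2.78, 1.20 to 5.08). Ifi211 and Ifi204, nuclear sensors of the p200 family, had log2 ratios of 2.72 (1.47 to 4.36) and 1.44 (0.82 to 2.13). Slfn5 stood at 474 CPM against 74.0 CPM (2.68, 1.86 to 3.64), and the antiviral transcription factor gene Irf7 at 204 CPM against 80.1 CPM (1.35, 0.54 to 2.28). Ifi27l2a was the most abundant called member, at 2573 CPM against 1091 CPM (1.24, 1.02 to 1.47). Zbp1 (0.36, −0.38 to 1.18) and Phf11b (−0.47, −1.10 to 0.20) did not reach 2-fold. Isg15 was the one named interferon gene that turned direction under an alternative, to −0.67 when the rule was applied after thinning every cell to 2000 UMIs. That version chose 86 cells, of which 47 were among the 76, and it also lowered Slfn1 to 0.80, Slfn5 to 0.69 and Ly6c2 to 2.20.

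Matrix, coagulation and lectin genes outside the rule moved with those in it. Of 10 tested, 8 were at least 2-fold higher and 0 lower (median 1.39), and 8 of 9 in the 60 cells. Lgals1, the lectin galectin-1, stood at 701 CPM against 80.1 CPM (3.13, 2.35 to 4.05), and Lgals3, galectin-3, at 1951 CPM against 746 CPM (1.39, 1.12 to 1.66). Tgfbi, a secreted adhesion protein, stood at 785 CPM against 216 CPM (1.86, 1.37 to 2.39). F10, coagulation factor X, had 180 UMIs against 11 (1.40, 0.53 to 2.43), and Mmp8, a collagenase that neutrophils also store, had 103 against 0, at least 5.54-fold. The complement genes C3 (1.85, 1.13 to 2.67) and Cfp, properdin (1.35, 0.18 to 2.83), were higher as well, whereas Itgam, a chain of complement receptor 3, was within its counting interval of equality (0.11, −0.43 to 0.69).

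Genes of the S100 family were higher or did not reach 2-fold. S100a10, the annexin A2 partner, stood at 809 CPM against 80.1 CPM (3.34, 2.55 to 4.25), and S100a6 at 2639 CPM against 740 CPM (1.84, 1.57 to 2.11). S100a4 was abundant in both, at 2032 CPM against 1116 CPM (0.86, 0.64 to 1.09), with medians per cell of 2061 CPM in classical and 407 CPM in nonclassical monocytes. In all, 3 of 7 tested S100 genes were at least 2-fold higher and 0 lower, beside 11.1% and 8.19% over all tested genes.

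In the Fc receptor list, which also holds the paired receptor gene Pira2, 3 of 9 genes were at least 2-fold higher and 1 lower. Over all tested genes the shares were 11.1% and 8.19%. Fcgr1, the high-affinity IgG receptor CD64 (1.58, 0.67 to 2.66), Fcgr2b, the inhibitory IgG receptor (1.42, 0.61 to 2.35), and Pira2, a paired immunoglobulin-like receptor (1.47, 0.30 to 2.95), were higher, and Fcgr4 was the lower one. Pattern recognition genes had 2 of 10 higher and 2 lower, beside the same shares over all tested genes. Clec4a2, an inhibitory C-type lectin (2.70, 1.31 to 4.59), and Pycard, the inflammasome adaptor ASC (1.68, 0.98 to 2.47), were higher. Clec4a1 (−1.37, −1.71 to −1.03) and Tlr7, an RNA sensor (−1.16, −1.77 to −0.52), were lower.

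Adhesion genes showed opposed members, with 3 of 13 at least 2-fold higher and 5 lower, beside 11.1% and 8.19% over all tested genes. The higher ones included Emb, a basigin relative (1.63, 1.12 to 2.19), and Cd52 (1.15, 0.93 to 1.37). The lower ones were Spn and the integrin chains Itgal (−1.81, −2.06 to −1.56), Itgb2 (−1.56, −1.83 to −1.28), Itgb1 (−1.17, −1.51 to −0.81) and Itga4 (−1.12, −1.35 to −0.88). ITGAL and ITGB2 together form LFA-1. In the 60 cells Itgb1 and Itga4 no longer reached 2-fold, at −0.96 and −0.87.

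Of 18 transcription factors of the lineage, 1 was at least 2-fold higher and 4 lower, beside shares of 11.1% and 8.19% over all tested genes. Klf4 stood at 220 CPM against 746 CPM (−1.76, −2.09 to −1.43), Klf2 at 685 CPM against 1461 CPM (−1.09, −1.31 to −0.87), and Nr4a1 and Pou2f2 are given above. Spi1, which encodes PU.1 (−0.43, −0.72 to −0.14), Cebpb (−0.76, −0.92 to −0.60) and Irf8 (0.68, 0.18 to 1.21) stayed under 2-fold. Immediate early and heat shock genes had 0 of 19 higher and 5 lower, beside the same shares. Among the 5 were Dusp1 (−1.10, −1.31 to −0.89) and Hspa1b (−1.30, −1.81 to −0.77). In the 60 cells 2 of 18 were lower, beside 6.02% of all genes tested there.

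The WASP and Arp2/3 pathway, the actin branching machinery that Was belongs to, had 0 of 31 tested genes at least 2-fold higher and 2 lower, with a median log2 ratio of −0.12. Over all tested genes 11.1% were higher and 8.19% lower, so the count of lower genes is near the share of all genes. Was itself had 94 UMIs in classical against 20 in nonclassical monocytes, or 93.5 CPM against 123 CPM (−0.40, −1.11 to 0.38). The lower genes were Abi3, a WAVE complex adaptor (−1.49, −1.90 to −1.06), and Fgr, a Src family kinase (−1.38, −1.73 to −1.02). The Arp2/3 subunits tested ranged from −0.34 (Arpc5l, −1.11 to 0.50) to 0.65 (Arpc4, 0.10 to 1.24). These values hold for the pooled cells and say nothing of WAS-KO against WT.

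**Figure D3:**
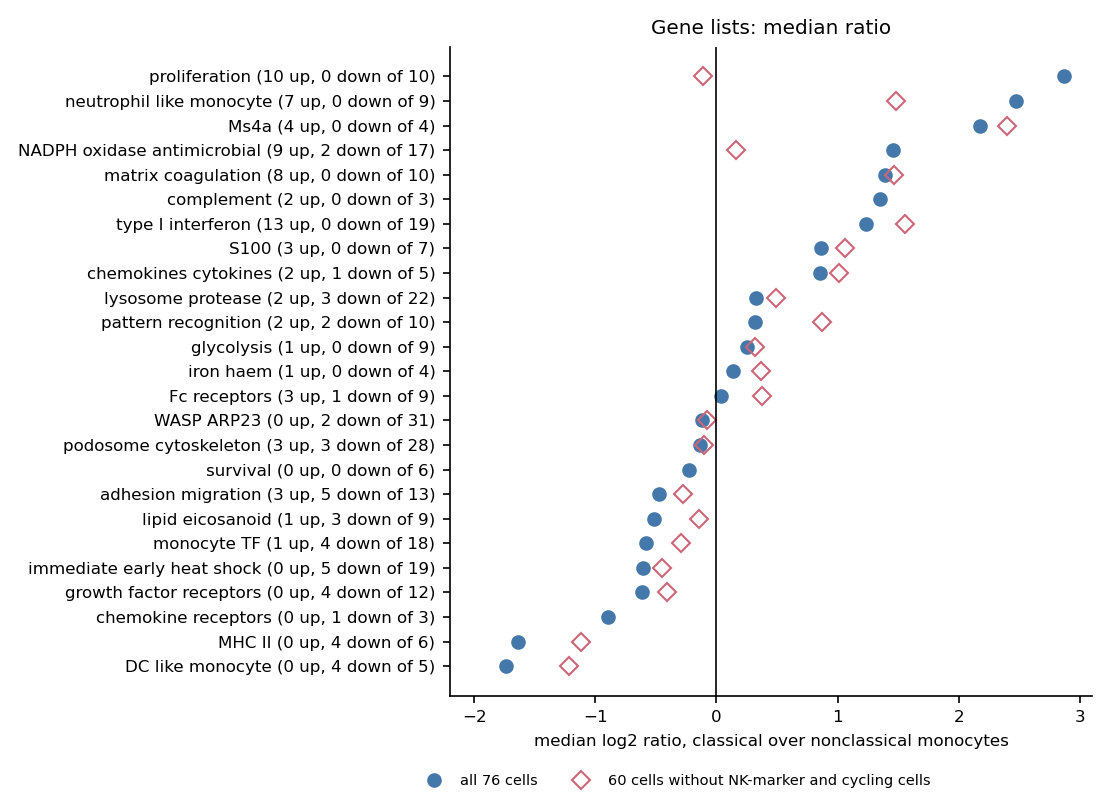
Median log2 ratio of each gene list, classical over nonclassical monocytes, with the number of tested members at least 2-fold higher (up) and lower (down) beside its name and open diamonds for the 60 cells without NK-marker and cycling cells. The proliferation and antimicrobial medians drop toward 0 without those cells, while the type I interferon, matrix and Ms4a medians stay above 1. The drop in proliferation follows from the choice of the cycling cells by that list.

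MHC class II genes, whose products present peptides to CD4 T cells, looked lower in classical monocytes, with 0 of 6 tested genes at least 2-fold higher and 4 lower (median −1.64). Cd74, the invariant chain, stood at 1801 CPM against 5252 CPM (−1.54, −1.66 to −1.42), and H2-Aa at 511 CPM against 1880 CPM (−1.88, −2.09 to −1.67). Scaled to depth, the median cell had 176 CPM of Cd74 in classical and 495 CPM in nonclassical monocytes. For H2-Aa the medians were 68.2 CPM and 0, and the top nonclassical cell had 123 UMIs. Leaving out the 2 nonclassical cells that also met the dendritic rule brought Cd74 to −0.42, H2-Aa to −0.32, H2-Ab1 to −0.37 and H2-Eb1 to −0.55, and none of the 4 then reached 2-fold. The 2-fold difference in summed MHC class II therefore rested on those 2 cells where the 76 were kept whole.

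Within the classical monocytes, MHC class II genes were among the most uneven. Cells were thinned to 2000 UMIs and the Fano factor, the variance of a gene's UMIs over its mean, was taken over the 67 deep enough cells without NK markers. The median over 1654 genes was 1.06. Cd74 had 18.7, with 0 to 46 thinned UMIs per cell, and H2-Aa 13.3, H2-Eb1 9.38 and H2-Ab1 7.02. Lyz2 followed at 11.4 and the nuclear RNA Malat1 at 8.41. Cxcl10, an interferon-induced chemokine, had 8.39 because 2 cells held its thinned UMIs, up to 10 in a cell, and Cxcl2, a neutrophil-attracting chemokine, had 5.15 with UMIs in 5 cells.

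Summed over Cd74, H2-Aa, H2-Ab1 and H2-Eb1, the 68 cells without NK markers ran from 0 to 486 UMIs with a median of 6. Of them 44 had at most 8, 3 had 9 to 19, 12 had 20 to 99 and 9 had 100 or more. Most cells were therefore low, and a smaller tail was high. Neutrophils, which should lack these transcripts, had 0 to 12 Cd74 UMIs at a median depth of 6087 UMIs. That range is of 1 gene, and the 68 cells had a median depth of 12444 UMIs, so it sets no background limit for the 4-gene sum. How much of the low sums is background was not tested.

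The cells were then ordered by their summed MHC class II CPM. The NK-marker and cycling cells were left out, which left 59 cells of at least 2000 UMIs, and the 19 highest cells were set against the 19 lowest, with median depths of 11857 and 12683 UMIs. Of 713 genes, 10 (1.4%) were at least 2-fold higher in the highest cells and 11 (1.54%) lower. With the cycling cells kept the shares were 3.33% and 5.85%, and with the NK-marker cells as well 3.26% and 4.45%. H2-DMb1 and H2-DMa, which load peptide onto class II, were higher (2.88, 2.14 to 3.71, and 1.28, 0.76 to 1.81). Tmem176a (2.66, 1.93 to 3.47) and Tmem176b (2.08, 1.56 to 2.63), a pair of ion channel genes of antigen-presenting cells, and Apoe, a lipid carrier (1.51, 1.19 to 1.85), were also higher. The lower genes included Mgst1, a glutathione transferase (−1.54, −2.10 to −1.01), Vcan (−1.25, −1.86 to −0.66) and Fn1 (−1.22, −1.55 to −0.90). Of 16 classical markers, 5 were at least 2-fold lower in the highest cells and 0 higher, and Vcan and Fn1, which the rule used, are among the 5.

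**Figure D4:**
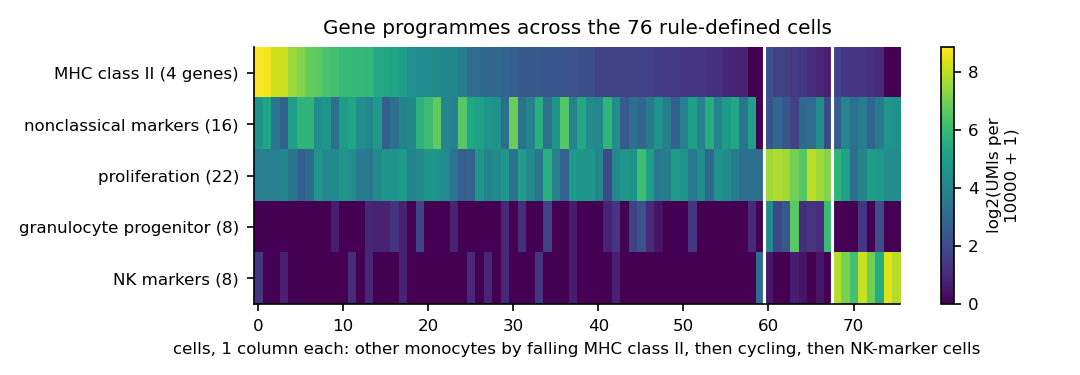
Summed UMIs of 5 gene lists in each of the 76 cells, as log2 of UMIs per 10000 plus 1, 1 column per cell, with white lines between the 60 other monocytes (ordered by MHC class II), the 8 cycling cells and the 8 NK-marker cells. The MHC class II tail lies outside the cycling and NK-marker cells, and granulocyte progenitor genes are brightest in 3 of the cycling cells.

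The same 59 cells were ordered by Ly6c2. In the 19 highest cells Ly6c2 ran from 1660 to 4578 CPM and in the 19 lowest from 0 to 590 CPM, with median depths of 12723 and 10437 UMIs. Of 623 genes, 10 (1.61%) were at least 2-fold higher in the highest cells and 13 (2.09%) lower. With the cycling cells kept the shares were 5.63% and 4.86%, and with the NK-marker cells as well 6.82% and 3.8%. The higher ones included Fn1 (1.59, 1.25 to 1.94) and F13a1 (1.52, 1.16 to 1.90), both used by the rule, and Capg (1.48, 0.81 to 2.21), Mgst1 (1.42, 0.90 to 1.98), Lgals1 (1.14, 0.66 to 1.64) and C3 (1.01, 0.49 to 1.55). The lower ones were led by H2-Eb1 (−4.81, −5.89 to −3.90), H2-Aa (−3.69, −4.20 to −3.23) and Cd74 (−2.65, −2.85 to −2.45). A few cells carried this: 5 of the 19 lowest cells held 1705 of their 2063 MHC class II UMIs (82.6%), and 11 of the 19 had at most 12. Nr4a1 (−1.17, −1.76 to −0.60) and Itgal (−1.16, −1.60 to −0.73), both nonclassical markers, were lower too. Of the same list, Pou2f2 (−0.78, −1.17 to −0.39) did not reach 2-fold and Cx3cr1 was flat (−0.03, −0.57 to 0.52). Of 12 interferon-stimulated genes tested, 0 passed 2-fold in either direction, with a median of 0.46 beside 0.03 over all tested genes, and Ms4a4c (0.78, 0.44 to 1.13), Bst2 (0.77, 0.23 to 1.33) and Oasl2 (0.76, 0.13 to 1.42) were higher within that limit.

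Across the 67 cells without NK markers, the Spearman correlation of Ly6c2 with the summed nonclassical markers was −0.55 (Pearson −0.51). It is given as a description of cells of 1 table, and depth correlated with the nonclassical sum at −0.67, so the part of depth in it was not tested. F13a1 and Fn1 correlated at 0.77 (Pearson 0.73), and F13a1 and Ly6c2 at 0.55 (Pearson 0.49), all per unit of depth. Depth correlated with Ly6c2 at 0.53 and with Fn1 at 0.38, and the 8 deep cycling cells are among the 67, so their part in these values was not tested either. Ccr2 followed Ly6c2 less closely, at 0.25 (Pearson 0.16). F13a1, Fn1 and Ccr2 are genes of the rule, and a cell with few F13a1, Vcan and Fn1 UMIs could enter only through Ccr2. The part of the rule in these correlations was not tested.

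**Figure D5:**
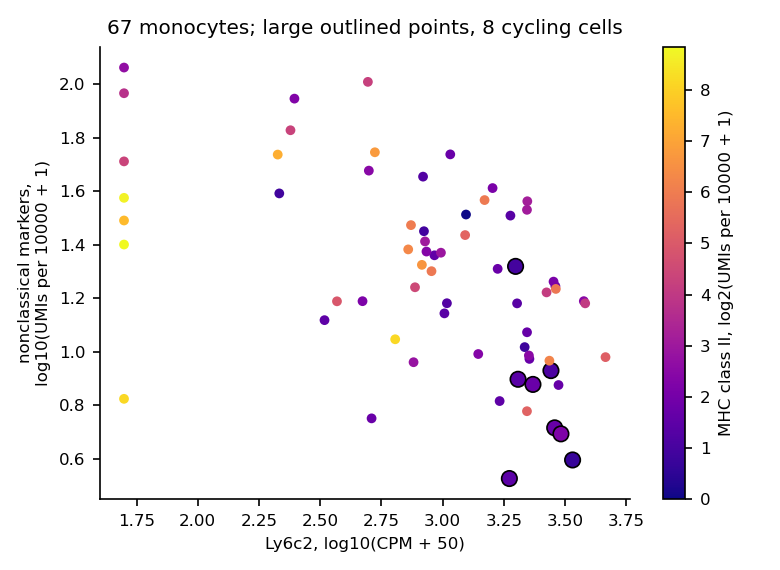
Each of the 67 cells without NK markers by its Ly6c2 level (x, log10 of CPM plus 50) and its summed nonclassical markers (y, log10 of UMIs per 10000 plus 1), coloured by MHC class II and with the 8 cycling cells outlined. Cells with little Ly6c2 sit higher on the y axis (Spearman −0.55), the column at the left edge holds the cells at 0 Ly6c2, and the cycling cells gather at high Ly6c2.

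A cycling group stood apart. With at least 200 UMIs over 22 proliferation genes, a threshold set after the values were seen, 8 cells had 229 to 825 such UMIs, against 1 to 132 in the others (median 18.5). They held 4554 of the 6003 proliferation UMIs of the 76 cells, a share that follows from the list that picked them. Their depth was 21408 to 43377 UMIs with a median of 34030.5, and they supplied 25.8% of all classical monocyte UMIs. Mki67, the proliferation antigen, ran from 4 to 68 UMIs in each of the 8, and was seen in 3 of the 60 other cells without NK markers. None of the 8 was called a doublet. Ly6c2 was present in all 8, at 49 to 122 UMIs or 2505 CPM (2316 to 2705), against 1369 CPM (1283 to 1459) in the 60 others. Ccr2 was 593 CPM (503 to 695) in the 8 against 1287 CPM (1204 to 1375) in the 60. Lyz2 (11993 against 23907 CPM), Csf1r (177 against 614), Vcan (57.8 against 318) and Cx3cr1 (50.1 against 354) were also lower in the 8. F13a1 was higher (1310 against 929 CPM), and Fn1 was close (1044 against 977).

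Within the cycling group, 3 cells held the granulocyte and monocyte progenitor genes. Their UMIs over Mpo, Elane, Prtn3, Ctsg, Ms4a3, Cd34, Kit and Gfi1 were 71 to 324, or 621 of the 696 in all 76 cells. Mpo, myeloperoxidase, had 105 of its 106 UMIs in these 3 cells and 0 in the other 5 cycling cells. Elane, neutrophil elastase, had 95 UMIs in the 3 and 3 in the other 5, and Ctsg, cathepsin G, had 151 and 2. Prtn3 reached further, with 262 UMIs in the 3, 28 in the other 5 and 25 in the 60 remaining cells, where 18 cells had a UMI. In the 3 cells Vcan and Cx3cr1 were at 0, Csf1r stood at 110 CPM and Lyz2 at 5137 CPM, beside 2739 CPM of Ly6c2 and 882 CPM of F13a1. The label is in doubt for these 3 as well, and whether they are monocytes or progenitors was not tested. The antimicrobial list, with 9 of 17 genes at least 2-fold higher than in nonclassical monocytes and a median of 1.46, had 5 of 13 and a median of 0.16 without the cycling and NK-marker cells. All 10 proliferation genes tested were at least 2-fold higher in the 76 cells, against 1 of 3 in the 60.

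Leiden clustering of the 76 cells (15 neighbours, 20 components, resolution 1.0) gave 5 clusters, described here by their leading genes without a test. The first had 19 cells led by Vcan, Mmp8 and Slfn1, with a median Ly6c2 of 1629 CPM. The second had 18 cells led by Ace, Ceacam1, Adgre4, Itgal and Nr4a1, with a median of 631 CPM. Another had 17 cells led by H2-Aa, H2-Eb1 and H2-Ab1, with a median of 693 CPM and 72.9 MHC class II UMIs per 10000. The fourth, led by Gzma and Ccl5, had 14 cells, of which 8 were the NK-marker cells. The fifth was the 8 cycling cells, led by Mpo and Top2a.

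Against neutrophils, the other short-lived myeloid cell of the spleen, most differences ran upward. Of 2792 genes, 1161 (41.6%) were at least 2-fold higher in classical monocytes and 225 (8.06%) lower. The median of all genes was 0.80 here, and with size factors in place of totals 492 genes were higher and 475 lower, so single genes are read relative to a shift of 0.80. S100a4 stood at 2032 CPM against 4.19 CPM (8.92, 7.70 to 10.55), and Klf4 at 220 CPM against 0.838 CPM (8.04, 5.54 to 13.35). Cx3cr1 had 260 UMIs against 1 (8.27, 5.78 to 13.58) and Ms4a4c 629 against 3 (7.96, 6.41 to 10.24). Without the NK-marker cells the shares were 41.3% higher and 8.31% lower. With the shift of 0.80 still in, all 6 MHC class II genes tested and 20 of 23 lysosomal genes were at least 2-fold higher, beside 41.6% of all genes. These list counts were not repeated with size factors. In the other direction, Lcn2, the iron-binding lipocalin of neutrophil granules, stood at 42.8 CPM against 14083 CPM (−8.36, −8.83 to −7.93), and Ly6g had 0 UMIs in classical monocytes against 720 in neutrophils. Ly6c2 was 1639 CPM in classical monocytes and 582 CPM (540 to 627) in neutrophils.

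Against the 11 type 2 dendritic cells, 391 of 1737 genes (22.5%) were at least 2-fold higher in classical monocytes and 74 (4.26%) lower, around a median of 0.22. Without the NK-marker cells the shares were 23.4% and 4.07%. Lyz2 (7.80, 6.76 to 9.12), Ly6c2 (7.01, 4.53 to 12.32), Msrb1, a methionine sulfoxide reductase (5.26, 3.40 to 8.31), and Cebpb (4.31, 3.19 to 5.76) led. All 10 matrix and coagulation genes tested were at least 2-fold higher. Rgs1, a brake on chemokine receptor signalling, stood at 47.7 CPM against 2413 CPM (−5.66, −6.15 to −5.20). Ciita, the activator of MHC class II transcription, stood at 56.7 CPM against 698 CPM (−3.62, −4.18 to −3.06). The dendritic cells were chosen for MHC class II UMIs, so their high Ciita is described and not read as a finding.

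Against the 6512 other kept cells, 1638 of 10569 genes (15.5%) were at least 2-fold higher and 1644 (15.6%) lower. Without the NK-marker cells the shares were 15.6% and 16.9%. The genes with the highest ratios were of low to middling level. Trem2, a lipid-sensing receptor of macrophages, had 82 UMIs in the 76 cells and 73 in all 6512 others, or 81.5 CPM against 1.67 CPM (5.61, 5.14 to 6.09). F10 had 180 and 200 UMIs (5.29, 4.99 to 5.59), Ccl9 462 and 613 (5.04, 4.86 to 5.21), and Tgfbi 789 and 1337 (4.68, 4.55 to 4.81). Msr1, a scavenger receptor (4.91, 4.43 to 5.39), and Mcub, a subunit of the mitochondrial calcium uniporter (4.79, 4.51 to 5.07), were in the same range. Of 32 pattern recognition genes 26 were at least 2-fold higher and 0 lower, and of 18 Fc receptor genes 13 and 0. The other kept cells included cells that failed a negative gate alone, since 176 cells met both positive gates and 76 of them the negative ones.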

How the data were processed

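Spleen cells of mice were profiled with a 3′ droplet kit, read on a HiSeq4000 or NovaSeq and aligned against mm10, reference version 3.0.0, per the labels' protocols. For the mapper and counter, no name is given in the sources used here. What was deposited is 1 table, which holds UMI counts of 31017 gene symbols in 7524 barcodes, and it is not normalized. Of these, 6588 barcodes with at least 200 genes and at most 10% mitochondrial UMIs were kept. No doublets were removed.

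Summed UMIs were scaled to CPM. Levels carry exact Poisson, shares Clopper-Pearson and ratios exact conditional binomial 95% intervals, which cover counting error only. A ratio needed at least 100 UMIs over both groups, and 2-fold was the call threshold. A group at 0 was set to 3 UMIs for a bound. With 1 pooled table no p-value was computed. Shares were thinned to 1000 UMIs and Fano factors to 2000 UMIs per cell. Scripts were tested on simulated data.

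The cells, lists and tests were chosen with earlier results of these data known, and the NK-marker (10 UMIs), cycling (200), progenitor (50), nonclassical-list (80 per 10000), MHC class II (100) and B cell (5) thresholds after their values were seen. Genes were named as the 15 highest and 12 lowest ratios over nonclassical monocytes, the 15 highest over other cells, the 8 highest and lowest in the remaining comparisons, the 12 highest Fano factors and up to 4 members of each list. Members that missed 2-fold, and further members of a list whose counts are given, were added after their values were seen. Some genes that these rules name are not reported here, though they enter every count. Coordinates are from GENCODE vM21 and promoters from RefSeq, both on GRCm38. Python 3.11.15, numpy 2.4.6, scipy 1.17.1, pandas 2.3.3, scanpy 1.11.5 and matplotlib 3.10.9 were used.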

Additional observations from a re-analysis of the deposited data

How the results depend on the processing

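No paired analysis was possible because the table does not tie barcodes to samples. The number of classical monocytes ranged from 63 with a mitochondrial maximum of 5% to 86 with a rule sum of at least 2, and 47 of the 76 met the rule after thinning to 2000 UMIs. Over nonclassical monocytes, the genes at least 2-fold higher and lower were 833 and 743 with a minimum of 20 UMIs, 67 and 36 with a minimum of 300 UMIs, and 109 and 81 without NK-marker and cycling cells, where fewer or more genes were tested. Over neutrophils they were 492 and 475 with size factors. The other 54 counts compared stayed within 1.5 times.

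Of the ratios of single genes, 1912 moved by less than their counting interval, 94 moved further and 15 changed sign. The cause was not tested. Part of the 1912 could not move. Scrublet called no cell of either group (102 ratios), and a minimum of 20 or 300 UMIs changes only which genes are tested (102 and 50). The rule after thinning moved 33 ratios, turned 4 and left 64. Leaving out NK-marker and cycling cells moved 23 and left 56, and the mean over cells moved 18, turned 2 and left 82. Those that turned under the rule after thinning were Isg15 (−0.67), Hmox1 (−0.63), Fth1 (−0.071) and Ltb4r1 (0.29). The other sign changes lay near 0. Ltb4r1 reached 0.029 without a mitochondrial maximum, 0.0043 with a rule sum of at least 5 and 0.021 without NK-marker cells. Hmox1 reached −0.028 with size factors, −0.058 as a mean over cells, −0.045 with a nonclassical sum of at least 5, −0.22 without cells with platelet markers and −0.16 without the nonclassical cells that met the dendritic rule. Ly6e reached −0.017 with size factors, −0.024 as a mean over cells and −0.019 without those cells. The 26 nonclassical and 11 dendritic cells limit the precision of their ratios.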

Other observations

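Gene groups not described above were compared between classical and nonclassical monocytes in the same way. Among lysosomal genes, 2 of 22 were at least 2-fold higher and 3 lower in classical monocytes, near the shares of 11.1% and 8.19% over all tested genes. Ctsc, the protease that activates granule serine proteases, stood at 723 CPM against 228 CPM (log2 ratio 1.66, 1.19 to 2.18), and Npc2, a cholesterol carrier, at 1299 CPM against 475 CPM (1.45, 1.12 to 1.80). Ctsb, cathepsin B, was lower at 742 CPM against 1868 CPM (−1.33, −1.53 to −1.13).

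Of 12 growth factor and cytokine receptor genes, 0 were at least 2-fold higher and 4 lower, beside 11.1% and 8.19% over all tested genes. Tgfbr1 had 73 UMIs in classical against 39 in nonclassical monocytes (−1.73, −2.31 to −1.13), and Tnfrsf1b, a TNF receptor, had 260 against 122 (−1.54, −1.86 to −1.22). Il10ra (−1.16, −1.59 to −0.72) and Il17ra (−1.06, −1.44 to −0.66) completed the group. Among 5 chemokine and cytokine genes, Ccl9 was higher at 459 CPM against 216 CPM (1.09, 0.59 to 1.63), whereas Il1b was lower at 75.6 CPM against 173 CPM (−1.19, −1.83 to −0.51).

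Single genes of the NADPH oxidase were also read. Cybb, its catalytic subunit, stood at 1591 CPM in classical and 1794 CPM in nonclassical monocytes (−0.17, −0.35 to 0.01), and Ncf1 at 158 CPM and 160 CPM (−0.02, −0.62 to 0.64). Of 28 podosome and cytoskeleton genes 3 were at least 2-fold higher and 3 lower, again near the shares over all genes, with the actin-binding peptide gene Tmsb10 at 5325 CPM against 1689 CPM (1.66, 1.48 to 1.84) and the membrane motor gene Myo1g at 204 CPM against 623 CPM (−1.61, −1.96 to −1.25).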
